A study of Macaca mulatta with 2 samples.

Results

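This account concerns the genes of the T cell coreceptors, *CD4*, *CD8A* and *CD8B*, and the 2 antibody tags that read CD4 and CD8 on the surface of the same cells. The 3 genes were taken by name from 35432 measured genes, and the CD4 and CD8 tags are the only tags of the data. All values came from the peripheral blood of 1 untreated rhesus monkey (*Macaca mulatta*) aged 6 years, in which CD4+ cells were taken from fresh mononuclear cells with releasable CD4 beads and CD8+ cells were then taken from them with CD8 beads. The sorted cells, called CD4+CD8+ double-positive (DP) T cells, were labelled with DNA-tagged antibodies to CD4 (clone SK3) and CD8 (clone SK1, against the α chain), here called CD4 FB and CD8 FB for feature barcode. An RNA library and an FB library were made from the same droplets, and both share their cell barcodes. There was 1 animal, so no comparison below has a test or a replicate, and the 95% intervals (exact Poisson for levels, exact binomial for shares and ratios) cover counting error only.

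CD4 and CD8 are the coreceptors of the T cell receptor. CD4 is a single chain that binds MHC class II, while CD8 binds MHC class I as a dimer of 2 α chains or of an α and a β chain, and both bring the kinase LCK to the receptor. Most mature T cells keep CD4 or CD8 but not both. CD8αβ is known from conventional cytotoxic T cells, and CD8αα from innate-like and some activated T cells. In the RefSeq annotation of Mmul_10, *CD4* (ENSMMUG00000013202) lies on chromosome 11 from 6953431 to 6986331 on the plus strand, with 7 to 11 exons per transcript. *CD8B* (ENSMMUG00000003532) and *CD8A* (ENSMMUG00000003524) lie on the plus strand of chromosome 13, from 19024595 to 19067848 and from 19092978 to 19100027, 25.1 kb apart. *CD8B* has no symbol in the deposited data and was named through a table of gene names.

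Of 7923 barcodes, 7601 cells had 200 to 4000 genes and at most 20% mitochondrial UMIs. Unique molecular identifiers (UMIs) count each captured molecule once. The cells held 502 to 23519 gene UMIs, with a median of 3636. The T cell markers *CD3D*, *CD3E* and *CD3G* summed to 2629 UMIs per 1000000 gene UMIs (CPM), against 159 for 4 B cell genes and 23.3 for 5 monocyte genes. A set of 86 cells had at least 3 UMIs of the B cell genes, *MS4A1* and *CD79A* among them, and none of the *CD3* genes. These B gene cells should lack all members and gave the background of both mRNA and tags.

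mRNA of the *CD4* and *CD8A* genes was found in many cells, and *CD8B* in few. *CD4* had 5357 UMIs in 3607 cells, 47.5% of cells (46.3 to 48.6), at 173 CPM. *CD8A* had 5314 UMIs in 2896 cells, 38.1% (37.0 to 39.2), at 171 CPM. *CD8B* had 510 UMIs in 294 cells, 3.87% (3.45 to 4.33), at 16.4 CPM. With every cell thinned to 2000 UMIs, which kept 7106 cells and left out 495, the shares were 28.8%, 24.5% and 2.03%. In B gene cells, which were slightly deeper (median 4137.5 UMIs), 3.49% had a *CD4* UMI, 6.98% a *CD8A* UMI and 1.16% a *CD8B* UMI without thinning. *CD4* and *CD8A* were thus above background. The single *CD8B* UMI of the 86 B gene cells allows a share of up to 6.31%. Over all cells, *CD8B* therefore could not be told from background by its share alone. Its level of 16.4 CPM (15.1 to 17.9) lay above the interval of the B gene cells (2.52 CPM, 0.06 to 14.0), which rests on that 1 UMI. The droplet with that UMI had 587 CD4 tag UMIs and 4 of the 9 *CD4* UMIs of the B gene cells. Whether it held T cell RNA was not tested. UMI counts are not scaled by transcript length, so levels are compared between groups of cells and not between genes.

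The counts per cell were low and uneven. *CD4* gave 1 UMI in 2345 cells and 3 or more in 353, with a maximum of 8. *CD8A* gave 1 UMI in 1614 cells and 3 or more in 553, with a maximum of 16. *CD8B* gave 1 UMI in 206 cells, 2 in 37 and 3 or more in 51, with a maximum of 10. A total of 51 cells thus stood apart from the many cells with a single *CD8B* UMI.

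Tags were counted much more deeply than mRNA. CD4 FB had a median of 381 UMIs per cell, with 10% of cells under 209 and 10% over 658. CD8 FB had a median of 335 and was wider, from 115 at the 10th percentile to 898 at the 90th. The B gene cells had medians of 90 for CD4 FB and 139.5 for CD8 FB. Their 90th percentiles, 191 and 330.5 UMIs, were taken as the upper edge of background, and a cell over them is called FB+. CD4 FB cleared it in 91.9% of cells (91.2 to 92.5) and CD8 FB in 50.5% (49.4 to 51.7). The CD8 edge runs through the middle of a continuous distribution, where 732 cells (9.63%) lay within 10% of it, against 293 (3.85%) for CD4. The class sizes therefore depend on the edge. With the 95th percentile the share of cells with both tags was 28.0%, and with the 50th it was 83.5%, against 47.8% here.

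Both edges together gave 4 classes. CD4 FB+ CD8 FB+ cells numbered 3636 (47.8%), CD4 FB+ CD8 FB- cells 3348 (44.0%), CD4 FB- CD8 FB+ cells 206 (2.71%) and CD4 FB- CD8 FB- cells 411 (5.41%). The last class held 70 of the 86 B gene cells, had no *CD3* UMI in 24.3% of its cells and carried 4940 CPM of *HBA* and *HBB*, the red blood cell list, against 40.4 and 42.4 CPM in the 2 CD4 FB+ classes. The CD4 FB- CD8 FB+ class also held more markers of other cells than the CD4 FB+ classes. No *CD3* UMI was found in 7.28% of its cells. It had 466 CPM of the B cell list, 191 CPM of the NK cell list and 181 CPM of the monocyte list, against 102, 62.1 and 7.78 CPM in CD4 FB+ CD8 FB+ cells. The NK cell list does not mark other cells alone. It was at 168 CPM in cells with 3 or more *GZMB* UMIs, of which 99.6% had a *CD3* UMI. Such cells made up 56.3% of this class and 38.4% of CD4 FB+ CD8 FB+ cells. The part of these other cells in the results below was not tested. In cells with a *CD3* UMI and no B cell gene UMI, the CD4 FB- CD8 FB- class had 160 CPM of *CD4* and 98.6 CPM of *CD8A*, against 98.8 and 59.3 CPM in all its cells.

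**Figure D1:**
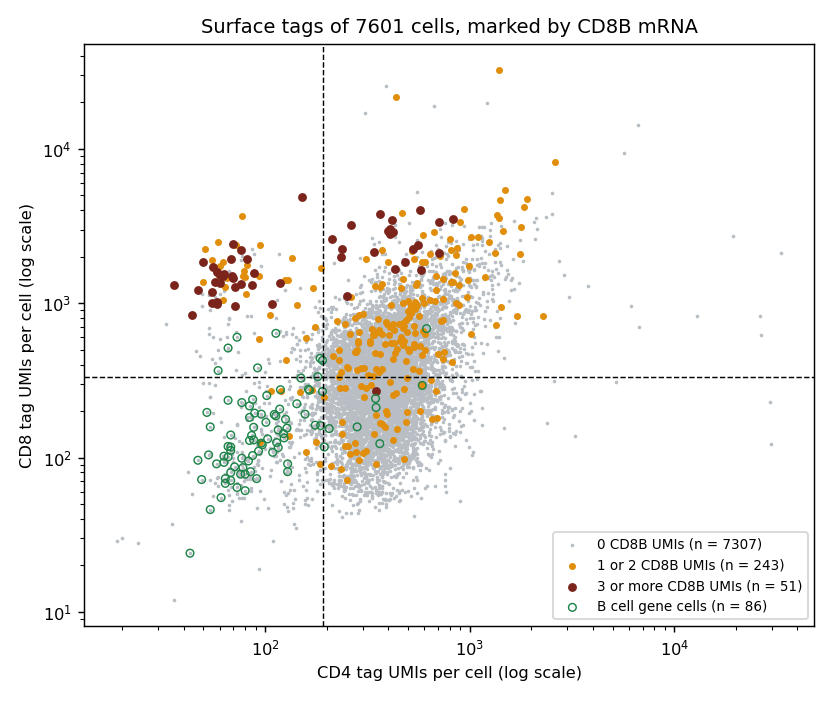
Each point is 1 of 7601 cells, with CD4 tag UMIs on the x axis and CD8 tag UMIs on the y axis, both on log scales. Dashed lines mark 191 and 330.5 UMIs, colours mark *CD8B* mRNA and green circles the 86 B gene cells. Cells with 3 or more *CD8B* UMIs (n = 51) form a group at low CD4 and high CD8 tag, and a second, looser one above both lines. The second has a high CD8 tag (median 2619 UMIs) and a CD4 tag (median 419) near that of double-tagged cells without *CD8B* (433).

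*CD8A* mRNA went with the CD8 tag. Across quartiles of cells by CD8 FB, from 12 to 186 UMIs up to 567 UMIs or more, *CD8A* was at 27.5, 87.6, 183 and 314 CPM. Its lowest quartile was near the B gene cells (25.2 CPM, 12.1 to 46.3), and each quartile was clear of the one below. The top quartile had a log2 ratio of 3.51 (3.30 to 3.74) to the bottom one. On the log2(CPM + 10) scale, 0.457% of 8102 genes were more than 1.5-fold higher in the top quartile, and *CD8A*, with 3.11, ranked first among all of them. *CD8B* had rank 3 with 1.75, so 2 of the 3 members were called higher, and none of the 3 was called lower, against 0.876% of all genes. The second rank was held by a feature without a symbol, ENSMMUG00000065023 (1.84), named after its value was seen. The *CD8A* ratio held inside each quartile of depth, from 3.18 to 3.85. In CD4 FB+ cells alone, an alternative added after seeing the data, it was 3.45 (3.23 to 3.68).

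The same pattern was seen from the mRNA side. Cells with 0, 1, 2 and 3 or more *CD8A* UMIs had CD8 FB medians of 242, 434.5, 603 and 938 UMIs. Among the 4705 cells without a *CD8A* UMI, 33.8% were CD8 FB+, while 97.3% of the 553 cells with 3 or more were. Depth was higher along these classes too, from a median of 3465 to 5222 gene UMIs. After thinning, the CD8 FB medians were 288, 496, 653 and 870.5, in the same order. Across 7601 cells of 1 library, Spearman's rank correlation of *CD8A* and CD8 FB was 0.533, and 0.358 over the 7106 thinned cells.

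*CD8B* followed the CD8 tag in another way. It stayed at 4.77, 4.55 and 6.48 CPM in the lower 3 quartiles of CD8 FB, whose intervals overlapped, and was at 39.7 CPM in the top quartile. The log2 ratio of top to bottom quartile was 3.06 (2.53 to 3.63), and 2.32 (1.74 to 2.95) in CD4 FB+ cells alone. By deciles of cells it was 12.4 CPM in the ninth and 68.9 CPM in the last, so most of its UMIs (341 of 510) lay in the 760 cells with 900 or more CD8 FB UMIs. *CD8A*, by contrast, climbed through every decile from 14.3 to 354 CPM.

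**Figure D2:**
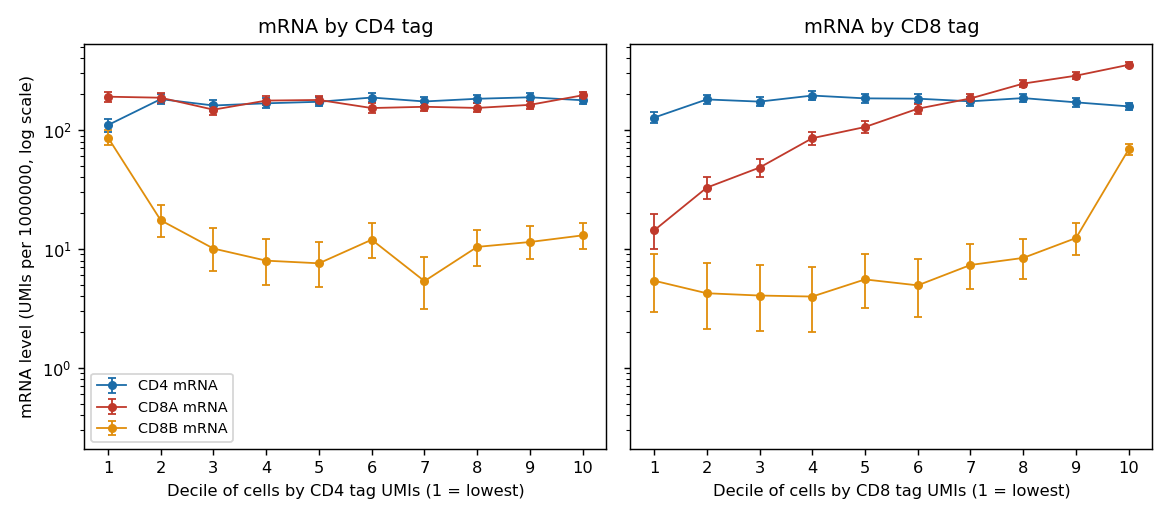
The level of each gene (UMIs per 1000000 gene UMIs, log scale) in deciles of cells by CD4 tag (left) and by CD8 tag (right), with 95% Poisson intervals that cover counting error. *CD8A* climbs from 14.3 to 354 CPM along the CD8 tag, *CD8B* is flat until the last deciles, and *CD4* is low in the first CD4 tag decile and level from the second on.

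*CD4* mRNA hardly went with the CD4 tag. Across quartiles of CD4 FB, *CD4* was at 148, 169, 183 and 182 CPM, a log2 ratio of top to bottom of 0.29 (0.18 to 0.41). It ranked 578th of 8072 genes. None of the 3 members was called more than 1.5-fold higher, against 1.51% of all genes. *CD8B* was called lower, 1 of 3 members, against 4.32% of all genes, with 43.9 CPM in the bottom quartile and 8.04 to 11.9 CPM in the others. The bottom quartile contains all CD4 FB- CD8 FB+ cells, which held 193 of its 259 *CD8B* UMIs. By deciles, *CD4* was at 110 CPM in the first and between 161 and 189 CPM in the other 9. Among CD4 FB+ cells alone, the ratio of top to bottom quartile was 0.07 (-0.04 to 0.18), an alternative added after seeing the data. The bottom quartile of CD4 FB held more of other cells than the top one, with 498 against 107 CPM of the B cell list and 1090 against 23.8 CPM of the red blood cell list. In cells with a *CD3* UMI and no B cell gene UMI the ratio over all quartiles was 0.19 (0.07 to 0.31), and *CD4* was at 160 CPM in CD4 FB- CD8 FB- cells, against 181 and 182 CPM in the CD4 FB+ classes with and without CD8 FB. Depth moved with both quantities. CD4 FB and gene UMIs had a rank correlation of 0.491, while *CD4* mRNA was at 214 CPM in the shallowest quartile of cells and 157 CPM in the deepest. Inside quartiles of depth the log2 ratio was 0.42 to 0.60, and for CD4 FB+ cells with quartiles drawn within depth it was 0.29 (0.18 to 0.40). The rank correlation of *CD4* mRNA and CD4 FB was 0.221, and 0.058 after thinning.

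From the mRNA side, cells with 0, 1, 2 and 3 or more *CD4* UMIs had CD4 FB medians of 353, 389, 445 and 504 UMIs. Even without a *CD4* UMI, 87.9% of 3994 cells were CD4 FB+. A *CD4* UMI was thus missing in many cells whose tag was well above background. Each class with more *CD4* mRNA was also deeper, from a median of 3481 to 4946 gene UMIs, and after thinning the 4 medians were 382, 401, 406 and 456.

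Finding both mRNAs in a cell missed most double-tagged cells. Of the 3636 cells FB+ for both tags, 32.2% had UMIs of both *CD4* and *CD8A*, and 21.0% had neither. Over all cells, UMIs of both were found in 1516 (19.9%), of which 77.2% (75.1 to 79.3) were FB+ for both tags. Of the 1380 cells with *CD8A* UMIs only, 68.3% were, and of the 2091 cells with *CD4* UMIs only, 36.3%. In 2614 cells (34.4%) neither mRNA was found, and 29.3% of these were FB+ for both. After thinning, *CD4* and *CD8A* were found together with an odds ratio of 1.10 (0.98 to 1.24), whose interval includes 1. *CD8A* and *CD8B* were found together more often, with an odds ratio of 3.77 (2.67 to 5.35), and *CD4* and *CD8B* less often, with 0.49 (0.30 to 0.76). Within CD4 FB+ CD8 FB+ cells the *CD8A* and *CD8B* odds ratio was 2.02 (1.25 to 3.30) and that of *CD4* and *CD8B* was 0.91 (0.52 to 1.55).

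CD4 FB- CD8 FB+ cells stood apart in *CD8B*, while the 2 largest classes differed in *CD8A* and *CD8B* by similar ratios. *CD8A* was at 250 CPM in CD4 FB+ CD8 FB+ cells, 58.2 CPM in CD4 FB+ CD8 FB- cells and 417 CPM in CD4 FB- CD8 FB+ cells. *CD8B* was at 15.2, 4.04 and 277 CPM in the same classes, so the 206 CD4 FB- CD8 FB+ cells held 193 of the 510 *CD8B* UMIs. The log2 ratio of CD4 FB+ CD8 FB+ to CD4 FB+ CD8 FB- cells was 2.11 (1.99 to 2.22) for *CD8A* and 1.91 (1.46 to 2.38) for *CD8B*. Against CD4 FB+ CD8 FB+ cells, the log2 ratio of CD4 FB- CD8 FB+ cells was 4.19 (3.92 to 4.47) for *CD8B*, 0.74 (0.56 to 0.91) for *CD8A* and -1.21 (-1.63 to -0.82) for *CD4*. With *CD3*-positive cells without a B cell gene UMI, *CD8B* was at 314 and 12.1 CPM in these 2 classes. With the same filter, *CD8B* was at 3.72 CPM (42 UMIs) in CD4 FB+ CD8 FB- cells, below the 12.1 CPM (178 UMIs) of double-tagged cells. The 12.1 CPM, and the unfiltered 4.04 CPM of CD4 FB+ CD8 FB- cells, lay within the interval of the B gene cells (2.52 CPM, 0.06 to 14.0). That interval rests on 1 UMI, so it cannot tell whether either level is background. *CD4* mRNA did not separate the CD4 FB+ classes, with 176 and 181 CPM, a log2 ratio of -0.04 (-0.12 to 0.05).

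The share of *CD8B* in the *CD8A* and *CD8B* UMIs was taken from counts summed over all cells of a class. It is a measure of mRNA to compare between classes, and not a ratio of the α and β chains in a cell. It was 5.71% (5.05 to 6.43) in CD4 FB+ CD8 FB+ cells and 40.0% (35.6 to 44.5) in CD4 FB- CD8 FB+ cells. Without the 5% of cells with most gene UMIs, the share was 4.53% in the first class, outside its interval, and 39.6% in the second. The edges mattered here too. With the 95th percentile of B gene cells, the second class took in more cells and its share was 19.7%.

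**Figure D3:**
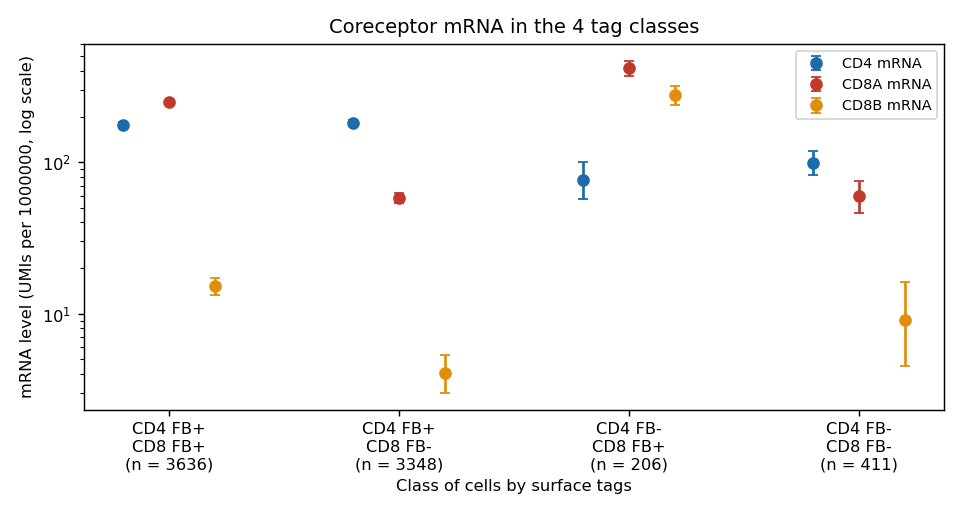
Level of *CD4*, *CD8A* and *CD8B* mRNA (UMIs per 1000000 gene UMIs, log scale) in the 4 classes of cells by CD4 and CD8 tag (FB), with 95% Poisson intervals for counting error. *CD8B* is at 277 CPM in CD4 FB- CD8 FB+ cells and at 15.2 CPM in CD4 FB+ CD8 FB+ cells.

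The CD4 FB- CD8 FB+ class was itself mixed. Its 60 cells with a *CD8B* UMI held 3.22 UMIs each on average, with medians of 70.5 CD4 FB and 1459.5 CD8 FB UMIs, 670 CPM of *CD8A* and only 3 *CD4* UMIs in all (13.9 CPM). Their CD4 tag median was below that of the B gene cells (90 UMIs). A low CD4 tag was partly built in, since the class was drawn at the 90th percentile of those cells. Their *CD4* level lay within the interval of the B gene cells (22.7 CPM, 10.4 to 43.0), which rests on 9 UMIs. The other 146 cells had medians of 146 CD4 FB and 512.5 CD8 FB UMIs, with 303 CPM of *CD8A* and 104 CPM of *CD4*. They lay nearer to both edges.

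In CD4 FB+ CD8 FB+ cells, 179 cells had a *CD8B* UMI and 142 of these had just 1. With 0, 1, 2 and 3 or more *CD8B* UMIs, the CD8 FB median of these double-tagged cells was 550, 799, 842 and 2619 UMIs. The 21 cells with 3 or more *CD8B* UMIs had a median of 8021 gene UMIs and a B cell gene UMI in 42.9%, against 3999 gene UMIs and 7.38% in the 3457 cells without *CD8B*. Depth and foreign markers moved with *CD8B* here, and whether these droplets held more than 1 cell was not tested. Without the 5% of cells with most gene UMIs, *CD8B* in the double-tagged class was at 12.0 CPM and *CD8A* at 252 CPM. In CD4 FB- CD8 FB+ cells the 29 cells with 3 or more *CD8B* UMIs had a median of 3451 gene UMIs, close to that of all cells.

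The members were then followed across 6 gates, each the cells with raw UMIs of 1 gene. They were *CCR7*, the lymph node homing receptor of naive and central memory cells; *GZMB*, a protease of cytotoxic granules; *EOMES*, a T-box factor of effector and Tr1 cells; *FOXP3*, the regulatory T cell factor; *CCR9*, a gut homing receptor; and *TRAV10*, a receptor gene segment of invariant NKT-like cells. A gate needed 1 UMI, or 3 for the abundant *GZMB*. It held 2214, 2819, 363, 163, 486 and 248 cells in this order, and 2198 cells were in none. Gates overlapped. *CCR7* was also found in 70.6% of the *FOXP3* gate and 38.0% of the *EOMES* gate, and *GZMB* in 33.9% of the *TRAV10* gate, while no cell was in both the *EOMES* and the *FOXP3* gate. The gates differed in depth, with medians from 3295 gene UMIs in the *GZMB* gate to 4766 in the *CCR9* gate. Comparisons inside quartiles of depth, added after seeing the data, are given for some of the tag differences. The tag differences of the *FOXP3* gate and all mRNA ratios are given without them.

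*CD4* mRNA in order of level was 199 CPM in the *GZMB* gate (190 to 207), 185 in *TRAV10* (161 to 212), 173 in *CCR9* (158 to 190), 155 in *EOMES* (137 to 176), 152 in *CCR7* (145 to 160) and 120 in *FOXP3* (97.6 to 147), with 169 CPM in cells of no gate. Each gate overlapped its neighbour in this order, while *GZMB* was clear of *EOMES*, *CCR7* and *FOXP3*. CD4 FB had another order, with medians of 478 UMIs in *CCR9*, 435 in *CCR7*, 415 in *TRAV10*, 408 in *EOMES*, 323 in *FOXP3* and 314 in *GZMB*. In raw tag UMIs the *FOXP3* gate, with a median of 4148 gene UMIs, was close to the shallower *GZMB* gate. The *GZMB* gate had the highest *CD4* mRNA and the lowest median of raw CD4 tag UMIs. Against other cells its *CD4* mRNA had a log2 ratio of 0.32 (0.24 to 0.40), while the median log2 tag differed by -0.41, or -0.24 inside quartiles of depth. The *CCR7* gate was the other way round, with -0.27 (-0.36 to -0.19) for *CD4* mRNA and 0.28 for the CD4 tag. Inside quartiles of depth the *CCR7* tag difference was 0.10 and per 1000 gene UMIs it was -0.04. In the *FOXP3* gate both were lower, by -0.53 (-0.84 to -0.24) for mRNA and -0.24 for the tag. These *CD4* mRNA ratios are not adjusted for depth. *CD4* was at 214 CPM in the shallowest quartile of all cells and 157 CPM in the deepest. The *GZMB* gate was the shallowest gate, with a median of 3295 gene UMIs, against 4367.5 in *CCR7*. The ratios alone therefore do not separate the part of depth. Shares of cells after thinning, at equal depth, differed in the same directions. A *CD4* UMI was then found in 32.7% of the *GZMB* gate (31.0 to 34.5) and 26.5% of cells outside it (25.2 to 27.8). In the *CCR7* gate it was 26.1% (24.3 to 28.0) against 30.0% outside (28.7 to 31.3). In the *FOXP3* gate it was 16.7% (11.3 to 23.3) against 29.1% outside (28.1 to 30.2).

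*CD8A* mRNA was at 208 CPM in the *CCR9* gate (191 to 226), 201 in *GZMB* (193 to 210), 201 in *EOMES* (179 to 224), 167 in *CCR7* (159 to 175), 164 in *FOXP3* (137 to 194) and 146 in *TRAV10* (124 to 170), with 147 CPM in cells of no gate (139 to 155). The first 3 gates overlapped among themselves, as did the last 3. The wide interval of *FOXP3* also overlapped those of the first 3 gates, while *CCR7* and *TRAV10* lay below them. CD8 FB medians were 471 UMIs in *CCR9*, 435.5 in *TRAV10*, 377.5 in *CCR7*, 353 in *GZMB*, 314 in *EOMES* and 190 in *FOXP3*, and 288 in no gate. The *TRAV10* gate had the lowest *CD8A* level in CPM, with a log2 ratio of -0.24 (-0.48 to -0.02) to other cells. Its CD8 tag was higher, by 0.39, or 0.37 inside quartiles of depth. The *CCR9* gate had both higher, by 0.31 (0.18 to 0.43) for *CD8A* and 0.53 for the tag, or 0.25 inside quartiles of depth. The *CCR7* gate had a CD8 tag difference of 0.23 that turned to -0.06 inside quartiles of depth.

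The *FOXP3* gate had the lowest CD8 tag of the 6 gates. Its median log2 CD8 tag differed by -0.82 from that of other cells, and its *CD8A* mRNA by -0.07 (-0.33 to 0.18). Of its 163 cells, 99 were CD4 FB+ CD8 FB- with 30.9 CPM of *CD8A* (16.4 to 52.8), and 56 were FB+ for both tags with 313 CPM (258 to 377). The level of the whole gate, 164 CPM, thus joined cells of low and of high *CD8A*. The same 2 classes differed in the other gates too, with 37.0 and 238 CPM in *CCR7*, 87.8 and 265 in *GZMB*, 38.5 and 291 in *EOMES*, 61.5 and 265 in *CCR9*, and 51.7 and 187 in *TRAV10*. Both-tag cells were 34.4% of the *FOXP3* gate (27.1 to 42.2), 40.5% of *EOMES*, 49.6% of *GZMB*, 53.8% of *CCR7*, 63.3% of *TRAV10* and 64.4% of *CCR9* (60.0 to 68.7).

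*CD8B* varied most between gates. It was at 42.2 CPM in *FOXP3* (29.2 to 58.9), 40.8 in *EOMES* (31.4 to 52.1), 21.6 in *CCR7* (19.0 to 24.6), 14.2 in *CCR9* (10.0 to 19.5), 13.5 in *GZMB* (11.4 to 15.9) and 3.60 in *TRAV10* (0.98 to 9.21). In CPM, *FOXP3* and *EOMES* overlapped and were clear of *CCR7*, and *CCR7* did not overlap *GZMB*. These UMIs lay in few cells, with 34 in 21 cells of *FOXP3* and 64 in 29 cells of *EOMES*. After thinning, a *CD8B* UMI was found in 4.94% of *FOXP3* (2.16 to 9.50), 3.76% of *EOMES* (2.02 to 6.34) and 3.06% of *CCR7* (2.37 to 3.88). By these shares *FOXP3* and *EOMES* were not clear of *CCR7*. The share of *GZMB*, 1.26% (0.88 to 1.76), stayed below that of *CCR7*. The 248 cells of the *TRAV10* gate held 4 *CD8B* UMIs, with *CD8A* at 146 CPM and 63.3% of cells FB+ for both tags. The *CD8B* levels of the *TRAV10* and *GZMB* gates lay within the interval of the B gene cells (0.06 to 14.0 CPM). That interval rests on 1 UMI, so it cannot tell whether either level is background. As a share of *CD8A* and *CD8B* UMIs, *CD8B* was 20.5% in *FOXP3* (14.6 to 27.4), 16.9% in *EOMES* (13.3 to 21.0), 11.5% in *CCR7* (10.1 to 13.0), 6.39% in *CCR9* (4.56 to 8.66), 6.30% in *GZMB* (5.35 to 7.36) and 2.41% in *TRAV10* (0.66 to 6.05). Of the *FOXP3* gate, 73.6% of cells were also in another gate. In the 43 cells of the *FOXP3* gate only, the share was 11.4% (3.20 to 26.7). Their *CD8B* log2 ratio to cells outside the gate was 0.46 (-1.42 to 1.83), against 1.42 (0.87 to 1.92) for the whole gate. Both intervals of the 43 cells include the values of the whole gate. They are too wide to show whether the *FOXP3* value depends on the shared cells.

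The gates included CD4 FB- CD8 FB+ cells, which carried many of the *CD8B* UMIs. They were 29 cells of the *EOMES* gate with 36 of its 64 *CD8B* UMIs, 30 cells of the *CCR7* gate with 66 of 235, and 116 cells of the *GZMB* gate with 56 of 147. Among CD4 FB+ cells, the *CD8B* share was 16.7% in *FOXP3* (11.1 to 23.6), 9.69% in *EOMES* (6.53 to 13.7), 8.56% in *CCR7*, 6.45% in *CCR9*, 4.38% in *GZMB* (3.54 to 5.35) and 2.41% in *TRAV10*. In cells FB+ for both tags, *CD8B* against the other such cells had a log2 ratio of 1.80 (1.03 to 2.50) in *FOXP3*, 1.16 (0.51 to 1.74) in *EOMES*, 0.73 (0.37 to 1.10) in *CCR7* and -1.60 (-3.48 to -0.22) in *TRAV10*. It was 0.31 (-0.25 to 0.83) in *CCR9* and -0.14 (-0.53 to 0.24) in *GZMB*, whose value over all cells was -0.41 (-0.70 to -0.13). The *FOXP3* value rests on 18 *CD8B* UMIs in 56 cells with a median of 5371 gene UMIs, against 4060.5 in all double-tagged cells. Cells of the *GZMB* gate that were CD4 FB+ CD8 FB- held 3 *CD8B* UMIs in 1170 cells (0.76 CPM, 0.16 to 2.21).

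**Figure D4:**
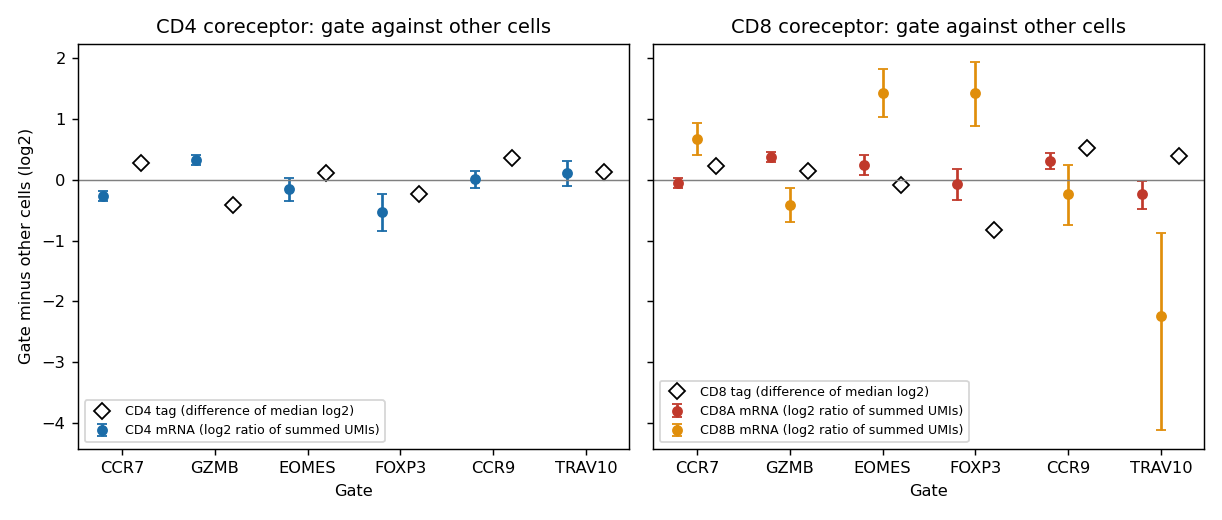
Difference of each gate from all other cells, on a log2 scale, for *CD4* mRNA and CD4 tag (left) and for *CD8A* and *CD8B* mRNA and CD8 tag (right). Circles are log2 ratios of summed UMIs with 95% counting intervals, and diamonds are differences of median log2 tag UMIs. The *GZMB* gate has 0.32 for *CD4* mRNA and -0.41 for the CD4 tag, and the *FOXP3* gate has -0.07 for *CD8A* mRNA and -0.82 for the CD8 tag.

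The balance of *CD4* and *CD8A* mRNA changed less. *CD8A* made up 49.8% of *CD4* and *CD8A* UMIs in all cells (48.8 to 50.8), 57.6% in *FOXP3* (51.0 to 64.1), 56.4% in *EOMES* (52.1 to 60.5), 54.6% in *CCR9* (51.4 to 57.6), 52.3% in *CCR7* (50.6 to 53.9), 50.3% in *GZMB* (48.8 to 51.8) and 44.0% in *TRAV10* (38.9 to 49.3). It ranged far more between tag classes, from 24.4% in CD4 FB+ CD8 FB- cells to 58.7% in CD4 FB+ CD8 FB+ cells and 84.5% in CD4 FB- CD8 FB+ cells. Neighbouring gates in the order above overlapped. Over quartiles of depth, the share was 44.6% (42.2 to 47.0) in the shallowest cells and 54.6% (53.1 to 56.1) in the deepest. The gates differed in depth too, and the part of depth in their shares was not tested.

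Genes of coreceptor signalling and of the CD4 and CD8 lineage choice were read against the same tags, as a list of 30 genes of which 29 passed the filter of 50 UMIs. Along CD4 FB, 4 of the 29 were more than 1.5-fold higher in the top quartile on the log2(CPM + 10) scale, against 1.51% of all genes, and 2 were lower, against 4.32%. The higher ones were *CD28* (1.11), a costimulatory receptor, and *TCF7* (0.82), *SATB1* (0.75) and *LEF1* (0.64), transcription factors of naive T cells. *RUNX3* (-1.03), a factor that represses *CD4* in CD8 lineage cells, and *CD5* (-0.68), an inhibitor of receptor signals, were lower. *RUNX3* was at 160 CPM in the bottom quartile of CD4 FB and 73.2 CPM in the top. The list's median was -0.20, against -0.10 for all 8072 genes. Besides the B cell list, the bottom quartile of CD4 FB had more of the NK cell list than the top one (136 against 37.4 CPM). The NK cell list was also at 168 CPM in the *GZMB* gate, so it does not mark other cells alone. The part of both lists in these values was not tested. With quartiles drawn within depth, 2 list genes were higher and none was lower. *ZBTB7B*, the factor of the CD4 lineage, was at 19.8 and 14.8 CPM in the bottom and top quartiles of CD4 FB.

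Along CD8 FB, none of the 29 genes was past 1.5-fold in either direction, against 0.457% of all genes higher and 0.876% lower, with a median of -0.05 against 0.00 for all 8102 genes. *RUNX3* was at 78.7 and 91.9 CPM in the bottom and top quartiles, and *ZBTB7B* at 14.8 and 15.1 CPM. *LCK*, the kinase that both coreceptors bind, was at 345 and 332 CPM. The largest values of the list were 0.39 for *FYN*, another kinase of the receptor, and -0.45 for *LEF1*, against 3.11 for *CD8A*.

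The gates were also used to ask which genes vary most like each member, by Pearson's r of log2(CPM + 10) over 12 groups of cells that share a combination of gates, among 5376 genes. These groups differ in depth and come from 1 library, and the names are a description. For *CD4* they were *STMP1* (0.94), *RNASE4* (0.93), *AP2S1* (0.93), *PHKG2* (0.92) and *XRN1* (0.90). For *CD8A* they were *RBM19* (0.87), *BCL2L2-PABPN1* (0.87), *PTBP3* (0.86), *PARP4* (0.86) and *VARS1* (0.86). For *CD8B* they were *TRAV17* (0.89), *AIMP1* (0.87), *IL16* (0.86), *TIGIT* (0.85) and *ITPKB* (0.82). These names were picked for the highest r among 5376 genes, so their values cannot be set against pairs that were not picked. Between the members, r was 0.28 for *CD4* and *CD8A*, 0.29 for *CD8A* and *CD8B* and -0.47 for *CD4* and *CD8B*. Some groups held few *CD8B* UMIs, with 1 in cells of the *TRAV10* gate only and 3 in cells of the *GZMB* and *TRAV10* gates.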

How the data were processed

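The authors aligned 5′ RNA reads to Mmul_10 and deposited UMI counts of each gene and tag in each barcode, not normalized. Cell Ranger 3.1.0 and STAR 2.5.1b are credited to the submitters' processing notes. The release of the annotation is not given in the sources read. The table holds 35432 genes and 2 tags in 7923 barcodes of 1 sample. The filter of the study was used (200 to 4000 genes, up to 20% mitochondrial UMIs), counting 2 features without symbol that are numbered among the mitochondrial genes. With only the named mitochondrial genes, 7876 were kept. No doublet caller was run. The B cell list is not named in full here.

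UMIs were summed over groups of cells and given per 1000000 gene UMIs (CPM). Intervals are 95%, exact Poisson or Clopper-Pearson. Ratios use the exact binomial split of both counts. Shares of cells were also given after thinning to 2000 UMIs (seed 1). Genes were called past 1.5-fold on log2(CPM + 10) with at least 50 UMIs in the higher quartile. The coreceptor members, gates and lists were chosen with earlier results of these data known. Named genes are the members, the gate genes, list genes past 1.5-fold and the 5 genes most like each member over groups of at least 50 cells, among genes with at least 500 UMIs. *LCK*, *FYN*, *ZBTB7B* and the features without symbol were named in addition, after their values were seen. There was 1 animal, so no test was run. The calling step was tested on simulated data. The alternatives were other tag edges, gates, cell filters, thinning depths and pseudocounts. Tools were Python 3.11.15, numpy 2.4.6, scipy 1.17.1, pandas 2.3.3 and matplotlib 3.10.9. Gene positions are from RefSeq's Mmul_10 annotation, matched by symbol.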

Additional observations from a re-analysis of the deposited data

Results flagged for a closer look

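The unnamed feature ENSMMUG00000059070, which the gene list places between *CD8B* and *CD8A*, gave 196 UMIs in 182 cells (2.39%) and 0 in the 86 B gene cells, outside the members' own measurement. It was at 0.92 CPM in the bottom and 13.1 CPM in the top quartile of CD8 FB, a log2 ratio of 3.83 (2.67 to 5.30). CD4 FB+ CD8 FB+ cells held 172 of its UMIs (10.1 CPM), CD4 FB+ CD8 FB- cells 18 (1.48 CPM) and CD4 FB- CD8 FB+ cells 5 (7.19 CPM, 2.33 to 16.8). Unlike *CD8B*, its interval in the last class included its level in double-tagged cells. It was named after its values were seen, and whether its reads belong to a neighbouring transcript was not tested.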

How the results depend on the processing

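With 1 animal, all 472 recomputed values are values without a test, and a value was taken as moved where it left the counting interval of the reported one (for tags, by over 0.1 on the log2 scale; for rank correlations, by over 0.1; for counts of genes, by over 1.5 times). A change of sign was counted only where the reported interval excluded 0 (for tags, where the reported difference was over 0.1 in size). Other changes of sign are among the values that stayed or moved. An example is *CD8B* in the *CCR9* gate, with -0.23 over all cells and 0.50 in CD4 FB+ cells. Of the 472 values, 363 stayed, 106 moved and 3 changed sign by this rule. The last 3 were tag differences of the *CCR7* gate, -0.044 for CD4 and -0.18 for CD8 per 1000 gene UMIs, and -0.061 for CD8 inside quartiles of depth. No paired analysis was possible because there was 1 animal. The log2 ratio of *CD4* mRNA between quartiles of the CD4 tag was 0.69 for deciles, 0.72 per 1000 gene UMIs (a tag measure that shares its denominator with CPM), 0.51 with quartiles drawn inside depth, 0.15 as a mean over cells and 0.070 in CD4 FB+ cells. For *CD8A* and the CD8 tag it was 4.63 for deciles and 3.29 as a mean over cells. For *CD8B* it was 3.67 for deciles, 3.77 after thinning, 2.32 in CD4 FB+ cells and 2.35 in these inside depth quartiles. Shares of cells with a UMI of *CD4*, *CD8A* and *CD8B* were 47.5%, 38.1% and 3.87% without thinning and 16.2%, 14.1% and 1.35% at 1000 UMIs. With the 95th percentile of B gene cells as the edge, 63.0% of cells were FB+ for CD4, 37.8% for CD8, 28.0% for both and 9.76% for CD8 only, and the *CD8B* share in the last class was 19.7%. With the 50th percentile these were 97.2%, 85.1%, 83.5% and 1.55%. The *CD8A* share of *CD4* and *CD8A* UMIs in the *CCR7* gate was 49.6% without the 5% of cells with most gene UMIs and 50.2% in cells of 1 gate only. It was 63.6% in the *EOMES* gate at 2 UMIs and 66.0% in the *FOXP3* gate for cells of 1 gate. In cells FB+ for both tags, the *CD8B* share of *CD8A* and *CD8B* UMIs was 4.61% with a *CD3* UMI and no B cell gene UMI and 4.53% without the deepest cells, both added after seeing the data. By gate this share was 8.56% in *CCR7*, 4.38% in *GZMB* and 9.69% in *EOMES* among CD4 FB+ cells, 7.37% in *GZMB* at 1 UMI, and 4.55% in *GZMB* and 11.4% in *FOXP3* for cells of 1 gate. In *FOXP3* it was 27.5% without the deepest cells and 28.6% at 2 UMIs. The median depth of 3636 UMIs limits all single-cell statements on *CD8B*.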
